A study of Mus musculus with 2 samples.

Results

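The nuclear receptors described here were 42 genes taken from a fixed list of family members by matching the Ensembl gene identifiers of the deposited tables to GENCODE symbols. They were 42 of 43346 mouse genes in those tables, and each of them was found in both tables. The list holds steroid, thyroid hormone, vitamin D, lipid-sensing and orphan receptors. It leaves out the retinoic acid receptors and Hnf4a, which were not analysed here. The rule named the genes and used no measured value, although the list was drawn up with earlier results of these data known.

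Nuclear receptors are transcription factors that most often carry a zinc finger DNA-binding domain and a pocket for a small, fat-soluble ligand. Steroid receptors wait in a chaperone complex and pair with themselves once hormone binds, whereas thyroid hormone, vitamin D, fatty acid and oxysterol receptors sit on DNA as partners of a retinoid X receptor. Orphan receptors, among them the COUP transcription factors, act without a known physiological ligand. In the developing kidney the family is known for Nr2f2, which in the mouse is required in the metanephric mesenchyme, and in the adult kidney for the mineralocorticoid and vitamin D receptors that govern salt and calcium handling.

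Total RNA from embryonic mouse kidney was sequenced as 2 libraries of a single group, strain B6NCrl at 14.5 days of gestation, with no treatment, mutation or transgene named in the labels. Each library came from 2 kidneys of a pup and was made from 10 ng of RNA longer than 200 nt with spike-in controls added. The collections were 2 days apart. The labels describe a single pup per library yet give the sex as a pool of males and females, and this was not resolved. With 2 libraries of a single group no test between conditions exists, so every result is a level, a share or a ratio with its spread over the libraries.

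The tables held 28429080 expected counts on genes in replicate 1 and 27758872 in replicate 2, of which the 42 receptors took 28069 and 28778. That was 0.0987% of gene counts in replicate 1 and 0.104% in replicate 2. The biological coefficient of variation between the libraries, from a dispersion fitted with edgeR over 16526 genes, was 0.222. As a check of the kidney label, 5 of 5 listed cap mesenchyme, 6 of 6 ureteric, 4 of 4 early nephron, 5 of 5 stromal and 4 of 4 podocyte genes were at 1 TPM, a length-normalised share of all transcripts, or more in both libraries. The same held for 2 of 8 adrenal and steroidogenic genes, 1 of 5 gonadal, 4 of 5 hepatic, 2 of 5 neural, 5 of 5 endothelial, 5 of 5 macrophage and 3 of 5 proximal tubule genes. Since 59.0% of all protein-coding genes pass the same floor, these counts do not single out the tissue. Of the kidney lists, Cited1 had 131.5 and 141 TPM, Eya1 had 72.5 and 52.2 TPM and Pax8 had 110.3 and 69.0 TPM. In whole tissue, fewer cells of a type and less RNA per cell cannot be told apart.

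The family can be ordered by the short stretch of the first zinc finger that reads the DNA half-site. These letters are shown because Nr2f2 and Nr2f6, the receptors with the highest levels, encode the same residues as Nr2f1 at positions 2, 3 and 6. Nr1h2, with a mean level between those of Nr2f6 and Nr2f1, encodes another residue at position 6. The 24 coding bases below are from GENCODE M21 transcripts on GRCm38, 5′ to 3′, with the codons at positions 2, 3 and 6 of the stretch in capitals. Those codons specify the residues known as the P-box. For Nr2f2 the stretch lies at chr7:70360021-70360044 on the minus strand, for Nr2f6 at chr8:71381029-71381052 on the minus strand and for Nr2f1 at chr13:78198253-78198276 on the minus strand, each within a coding exon.
Nr2f2: tgcGAGGGCtgcaagAGCttcttc
Nr2f6: tgcGAGGGCtgcaagAGTttcttc
Nr2f1: tgcGAGGGCtgcaaaAGTttcttc
Nr1h2: tgtGAAGGCtgcaaaGGCttcttc
Thra: tgtGAGGGCtgcaagGGCttcttt
Rxrb: tgcGAGGGCtgcaagGGTttcttc
Esrrg: tgtGAAGCCtgcaagGCAttcttc
Nr3c2: tgcGGCAGCtgcaaaGTCttcttc
Esr1: tgcGAAGGCtgcaagGCTttcttt
Nr5a1: tgcGAGAGCtgcaagGGCttcttc

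The stretch was found in 40 of the 42 genes and its capitals fell into 8 groups by the residues they encode. It was absent from Nr0b1 and Nr0b2, which are known to lack this domain. The group of Nr2f2, Nr2f6 and Nr2f1 had 3 members and held 57.5% and 62.4% of the TPM summed over all 42 receptors in replicates 1 and 2. The group of Nr1h2, Thra and Rxrb was the most numerous, with 24 members, of which 16 reached 1 TPM in both libraries, and it held 32.4% and 29.9% of the sum. The group of Nr3c2, which also contains Nr3c1 and Pgr, held 5.34% and 3.57%. The group of Esrrg, with Esrra and Esrrb, held 3.95% and 3.53%. The 4 remaining groups, among them those of Esr1 and Nr5a1, had no member at 1 TPM in both libraries.

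Of the 42 receptors, 23 were at 1 TPM or more in both libraries, which is 54.8%. Over all genes with a symbol the share was 33.5%, and over protein-coding genes it was 59.0%, so the receptors stood near the protein-coding background. A further 3 receptors, Esr1, Nr1h3 and Nr6a1, reached 1 TPM in replicate 1 alone, and 16 were under 1 TPM in both. The levels were steep: 9 receptors averaged 10 TPM or more, 16 averaged between 1 and 10 TPM, and 17 averaged less than 1 TPM. The sum over the family was 514.5 TPM in replicate 1 and 471 TPM in replicate 2, or 493 ± 30.9 TPM (SD, n = 2). Nr2f2, Nr2f6, Nr1h2, Nr2f1 and Thra together made up 72.5% and 78.3% of it.

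**Figure D1:**
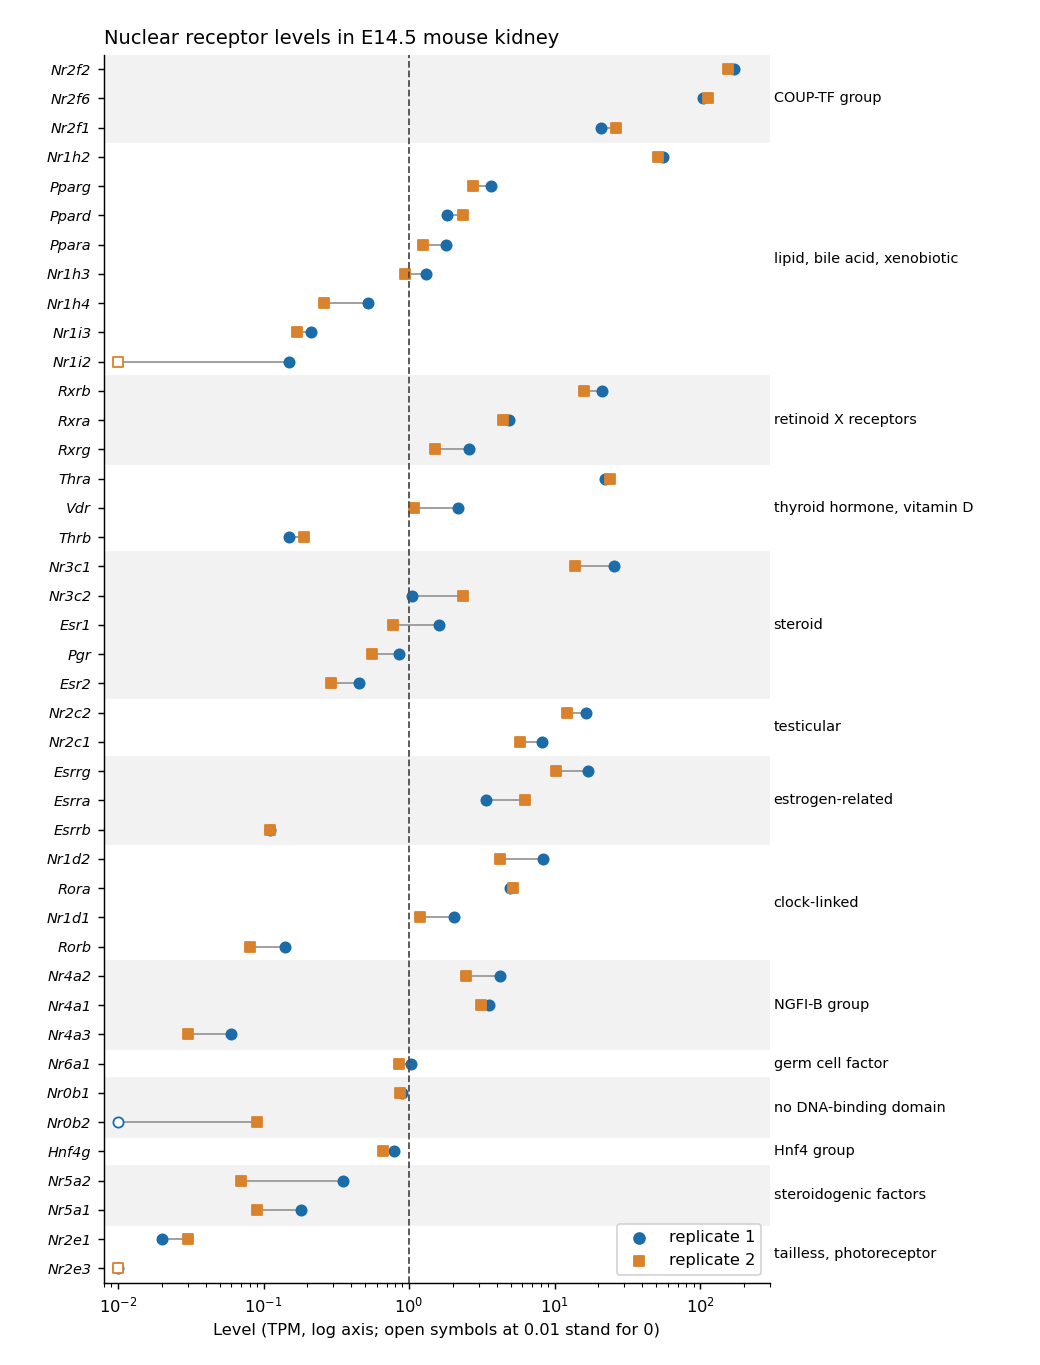
Level of each of the 42 nuclear receptors in TPM on a log axis, grouped by class, with replicate 1 as circles and replicate 2 as squares. Open symbols at 0.01 stand for a listed level of 0 and the dashed line marks 1 TPM. Nr2f2 and Nr2f6 lie above 100 TPM in both libraries, and 16 receptors lie left of the line in both.

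In the order of mean levels, neighbours counted as separate where both libraries of a receptor lay above both libraries of the next. Among the 23 receptors at 1 TPM in both libraries this held for 6 of 22 neighbouring pairs. Nr2f2 was separate from Nr2f6, Nr2f6 from Nr1h2 and Nr1h2 from Nr2f1. From Nr2f1 down to Esrrg, through Thra, Nr3c1, Rxrb and Nr2c2, no neighbours were separate. The next breaks came between Esrrg and Nr2c1, between Rxra and Nr4a2, and between Pparg and Ppard. The break below Esrrg rested on short transcripts: over transcripts of 1000 nt or more Esrrg had 7.12 and 3.69 TPM and overlapped Nr2c1, at 8.16 and 5.8 TPM.

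The COUP transcription factors, orphan receptors that act mainly as repressors, were all 3 abundant. Nr2f2, also called COUP-TFII, had 169.6 TPM in replicate 1 and 155 TPM in replicate 2, from 11328 and 12139 expected counts. Nr2f6, a COUP relative known as a repressor in T cells, had 105 and 112 TPM. Nr2f1, also called COUP-TFI and known for patterning of the neural cortex, had 20.9 and 26.2 TPM. The TPM ratio of replicate 1 to replicate 2 was 1.09 for Nr2f2, 0.937 for Nr2f6 and 0.796 for Nr2f1, and the genes did not overlap. The class sum was 296 and 294 TPM, so 59.9 ± 3.48% of the family's level (SD, n = 2) came from 3 genes. Nr2f2 alone was 33.0% of it in each library. Within a library Nr2f2 stood 8.13-fold above Nr2f1 in replicate 1 and 5.92-fold in replicate 2.

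**Figure D2:**
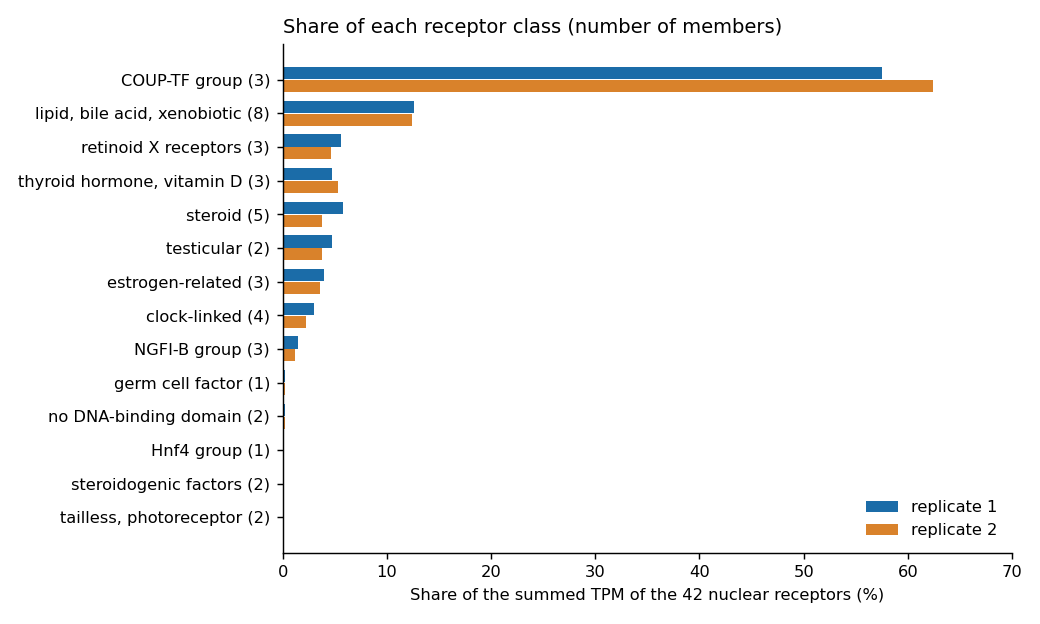
Share of the TPM summed over all 42 receptors that each class held, in percent, with a bar for each library and the number of members in brackets. The COUP-TF bars, at 57.5% and 62.4%, exceed those of every other class, of which the lipid, bile acid and xenobiotic sensors come next at 12.6% and 12.45%.

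The transcripts behind these levels differed among the COUP genes. For Nr2f6, the transcript Nr2f6-201, which codes for the zinc finger stretch, took 92.1% and 90.7% of the gene's TPM. For Nr2f2, the transcript with the stretch, Nr2f2-201, took 72.7% and 74.6%. The other Nr2f2 transcript, Nr2f2-202, has 846 coding bases and not the stretch, and took 27.3% and 25.4%, which was 46.3 and 39.5 TPM. In Nr2f1 the share was larger: transcripts annotated as coding but without the stretch, Nr2f1-205 and Nr2f1-202, together held 40.0% and 39.1% of its TPM. The level in transcripts that code for the stretch was thus 123 and 116 TPM for Nr2f2 and 11.9 and 14.1 TPM for Nr2f1. The first 643 nt of Nr2f2-202 lie wholly within exons of B130024G19Rik on the opposite strand, a gene at 24.3 and 18.2 TPM, and its part in the Nr2f2-202 share was not tested. The length of Nr2f2-201 in the tables, 4220 nt, differs from that in the annotation release used here.

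**Figure D3:**
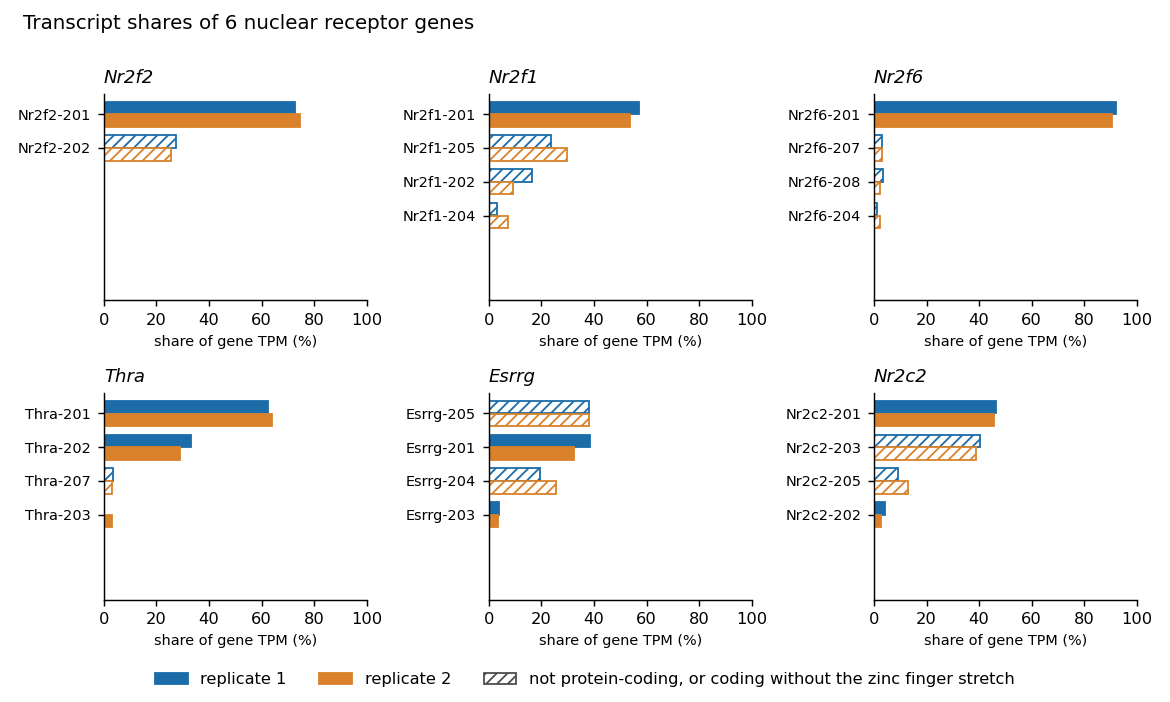
Share of the gene's TPM taken by each transcript with a mean of 1% or more, in percent, for 6 receptors and both libraries. Filled bars are protein-coding transcripts with the zinc finger stretch and hatched bars are all others, which take 27.3% and 25.4% of Nr2f2 but under 10% of Nr2f6.

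Over the 10 receptors at 5 TPM or more in both libraries, the leading transcript held a median of 54.0% of the gene's TPM, and 8 of the 10 had the same leading transcript in both. Nr2c1-203 took 69.5% and 67.7% of Nr2c1, and Rxrb-202 took 54.4% and 51.1% of Rxrb. The lead of Nr3c1 was Nr3c1-208, a transcript with an incomplete coding annotation, at 41.3% and 40.1%. For Nr1h2 the lead was Nr1h2-203 in replicate 1, with 36.9%, and Nr1h2-204 in replicate 2, with 43.3%. Both of these code for the zinc finger stretch.

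Among the 5 listed receptors for circulating steroids, the glucocorticoid receptor Nr3c1 was the highest, at 25.6 and 13.9 TPM from 1961 and 1278 counts. Nr3c2, the mineralocorticoid receptor, had 1.05 and 2.35 TPM from nearly equal counts of 83 and 78. The mean length assigned to Nr3c2 was 4134 nt in replicate 1 and 1573 nt in replicate 2, because the 612-nt transcript Nr3c2-206 took 0% of its TPM in replicate 1 and 71.1% in replicate 2. Counting only transcripts of 1000 nt or more, a choice made after seeing these lengths, Nr3c2 had 1.06 and 0.68 TPM. The Nr3c1 to Nr3c2 ratio was 24.4 and 5.92 over all transcripts and 22.4 and 19.3 over the long ones, so the libraries lay closer on the second measure.

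The sex steroid receptors were low. Esr1, the main estrogen receptor of reproductive tissue, had 1.61 and 0.77 TPM. Pgr, the progesterone receptor, had 0.85 and 0.56 TPM, and Esr2, the second estrogen receptor, had 0.45 and 0.29 TPM. Replicate 1 was higher for each of these 3 genes, and all 3 rested on 129 counts or fewer in a library.

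The genes around the steroid receptors ranged from high levels to no counts. All 7 listed chaperones of unliganded steroid receptors were at 1 TPM or more, led by Hsp90ab1 at 1468 and 1158 TPM, Hsp90aa1 at 824 and 991 TPM and Ptges3 at 445 and 467 TPM. The lowest were Ppid at 148 and 121 TPM and Fkbp5, itself a glucocorticoid-inducible gene, at 6.76 and 9.35 TPM. Hsd11b2, which inactivates glucocorticoids and so keeps them from the mineralocorticoid receptor, had 31.6 and 24.6 TPM. Hsd11b1, which regenerates active glucocorticoid, had 1.23 and 0.35 TPM. Of the 9 listed glucocorticoid and mineralocorticoid enzymes and response genes 7 were at 1 TPM or more. This and the other list counts stand beside 59.0% of all protein-coding genes at the same floor. Tsc22d3 had 71.1 and 58.4 TPM, Sgk1 had 40.9 and 30.6 TPM, and Zbtb16 was lowest at 0.28 and 0.59 TPM. Of 5 matched sex steroid enzymes 2 reached 1 TPM, Hsd17b12 at 100.1 and 104 TPM and Srd5a1 at 11.1 and 10.6 TPM. Hsd17b1 had 0.12 and 0.070 TPM, and no read was counted on Cyp19a1, the aromatase gene, or Srd5a2.

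Of the thyroid hormone receptors nearly all of the level was Thra. Thra had 22.1 and 23.9 TPM, against 0.15 and 0.19 TPM for Thrb, from 17 and 25 counts. The ratio was 147 in replicate 1 and 126 in replicate 2. Vdr, the vitamin D receptor, had 2.18 and 1.08 TPM, so replicate 1 was higher.

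Thra makes a hormone-binding receptor, alpha 1, and a splice form, alpha 2, whose different carboxyl end does not bind the hormone. Their coding sequences share 1111 bases and then part, as the 12 shared bases in lower case and the first 18 bases of each own end in capitals show.
Thra-201 (alpha 2): tgctgatgaaggAGAGAGAAGTGCAGAGTT
Thra-202 (alpha 1): tgctgatgaaggTGACTGACCTCCGCATGA

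Thra-201 codes for 492 residues and Thra-202 for 410. Thra-201 took 62.5% and 64.0% of the gene's TPM, and Thra-202 took 33.1% and 29.1%. Of the 2 forms together alpha 2 was 67.1 ± 2.38% (SD, n = 2). The last exon of Thra-201, at chr11:98768157-98769006, overlaps the last exon of Nr1d1 on the opposite strand by 263 nt. The Thra and Nr1d1 counts were not whole numbers, but their sums were, 1064 in replicate 1 and 1261 in replicate 2, so reads were divided between the genes. Counts of this kind, whole within 0.02 only when added to those of an opposite-strand gene, were found for 6 receptors: Thra, Nr1d1, Nr1i3, Nr2c2, Nr2f1 with A830082K12Rik and Nr2f6 with Ocel1. Reads of Nr1d1 in that overlap cannot be told apart from those of alpha 2 here.

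The genes that deliver and convert thyroid hormone were uneven. The transporter Slc16a10 had 4.41 and 1.81 TPM. The deiodinases, which activate or inactivate the hormone, had 0.29 and 0 TPM for Dio1, 0.050 and 0.020 TPM for Dio2 and 0.080 and 0.10 TPM for Dio3, all from 7 counts or fewer. The response gene Thrsp had 0.22 and 0.23 TPM. For vitamin D, the activating Cyp27b1 had 0.31 and 0.27 TPM and the inactivating Cyp24a1 had 0.18 and 0.060 TPM. Of the 6 listed vitamin D genes 3 were at 1 TPM, beside 59.0% of protein-coding genes. They were Calb1 at 164 and 168 TPM, S100g at 34.3 and 36.5 TPM and Trpv6 at 2.11 and 2.42 TPM. Calb1 is also a marker of the ureteric epithelium. Trpv5, a calcium channel of the mature distal tubule, had 0.13 and 0 TPM.

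The retinoid X receptors, the shared partners of the heterodimer-forming receptors, were all at 1 TPM or more. Rxrb had 21.25 and 15.97 TPM, Rxra had 4.87 and 4.40 TPM, and Rxrg had 2.57 and 1.5 TPM. The 3 genes did not overlap. Rxrb stood 4.36-fold and 3.63-fold above Rxra. By counts the ratio was smaller, since Rxra transcripts averaged 4905 and 4814 nt and Rxrb transcripts 2265 and 2235 nt. Counts on Rxra were 0.509 and 0.608 times those on Rxrb.

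Among the sensors of lipids and foreign compounds, Nr1h2 dominated. Nr1h2, the liver X receptor beta, which senses oxysterols, had 55.4 and 51.0 TPM, against 1.30 and 0.93 TPM for Nr1h3, the liver X receptor alpha. The ratio was 42.6 in replicate 1 and 54.8 in replicate 2. Of 8 listed liver X receptor targets 7 were at 1 TPM, beside 59.0% of protein-coding genes. Apoe had 143 and 129 TPM, Lpcat3 had 52.7 and 37.95 TPM and Srebf1 had 44.4 and 42.9 TPM. The lowest were Abca1, a cholesterol exporter, at 4.41 and 2.56 TPM and Abcg8 at 0.27 and 0.33 TPM.

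The 3 fatty acid receptors were low, with Pparg above Ppard and Ppara in both libraries. Pparg, known for fat cell formation, had 3.64 and 2.73 TPM. Ppard, the broadly expressed form, had 1.83 and 2.34 TPM, and Ppara, the form that drives fatty acid oxidation in liver and proximal tubule, had 1.78 and 1.24 TPM. Ppard exceeded Ppara 1.89-fold in replicate 2 but only 1.03-fold in replicate 1. All of the Pparg level in both libraries, 125 and 108 counts, was assigned to Pparg-202, and Pparg-201, which starts further downstream and codes for a longer protein, was listed at 0. Of 12 listed PPAR target genes 10 were at 1 TPM, beside 59.0% of protein-coding genes. The highest were Fabp4 at 108 and 129 TPM, Acadl at 77.4 and 52.9 TPM and Acadm at 58.4 and 53.0 TPM. The lowest were Pdk4 at 1.98 and 0.93 TPM and Ehhadh at 1.51 and 0.79 TPM.

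The bile acid and xenobiotic receptors were all under 1 TPM. Nr1h4, the bile acid receptor, had 0.52 and 0.26 TPM, and Nr1i3, the constitutive androstane receptor, had 0.21 and 0.17 TPM. The Nr1i3 counts, 11.9 and 11.3, were also divided with an opposite-strand gene, Tomm40l. Nr1i2, the pregnane X receptor, had 7 counts in replicate 1 and 0 in replicate 2, which allows up to 0.0543 TPM there. Their listed targets were low as well. Of 10, only Fgf15 reached 1 TPM in both libraries, at 1.64 and 1.70 TPM, while Slc51b had 0.53 and 0.57 TPM, Abcb1a had 0.37 and 0.10 TPM, and 4, among them Cyp2b10 and Cyp3a25, had no counts.

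Nr1h2 and Nr1h4, a high and a low member of this class, are shown as examples of how promoter sequence differed. The RefSeq windows (GRCm38.p6) run from 250 bases before to 50 after the start, printed 5′ to 3′ on the gene's minus strand with every CG in capitals. They are at chr7:44553916-44554215 for Nr1h2 and chr10:89506609-89506908 for Nr1h4.
Nr1h2: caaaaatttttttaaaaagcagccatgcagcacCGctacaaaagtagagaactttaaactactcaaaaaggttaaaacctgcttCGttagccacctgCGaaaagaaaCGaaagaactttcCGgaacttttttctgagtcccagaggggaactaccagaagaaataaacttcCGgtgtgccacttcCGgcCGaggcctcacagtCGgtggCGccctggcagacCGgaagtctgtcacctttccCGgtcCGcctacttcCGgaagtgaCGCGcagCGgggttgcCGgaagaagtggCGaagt
Nr1h4: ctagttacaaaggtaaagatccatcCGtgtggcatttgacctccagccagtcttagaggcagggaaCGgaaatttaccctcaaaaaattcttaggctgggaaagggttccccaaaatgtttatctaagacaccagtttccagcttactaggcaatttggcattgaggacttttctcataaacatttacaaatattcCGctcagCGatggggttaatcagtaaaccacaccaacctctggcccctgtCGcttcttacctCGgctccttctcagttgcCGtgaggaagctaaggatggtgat

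The Nr1h2 window holds 19 CG pairs, a number that 28.1% of all 32851 windows reach, and the Nr1h4 window holds 7, which 52.1% reach. Windows were found for 38 of the 42 receptors, and values were averaged where a gene had several. The ratio of observed to expected CG pairs had a median of 0.781 over the 21 receptors at 1 TPM in both libraries and 0.427 over the 17 others. Over protein-coding genes the medians were 0.753 for 9925 at 1 TPM and 0.218 for 6392 others. A ratio of 0.6 or more was held by 57.1% of the 21 receptors and 23.5% of the 17, against 71.6% and 14.3% of those protein-coding genes, so the receptors differed in the same direction but by less. Nr2f6 had 1.03, Rxrb 0.991 and Nr1h2 0.988. Several receptors went the other way. Nr4a3 had 0.866 and Nr2e1 0.770 although both were under 1 TPM, and Nr1d1 had 0.404 although it was above. Nr2f2 had 0.109 with 2 CG pairs, and its window lies at the start of Nr2f2-202 and not of Nr2f2-201, the transcript with most of the level.

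**Figure D4:**
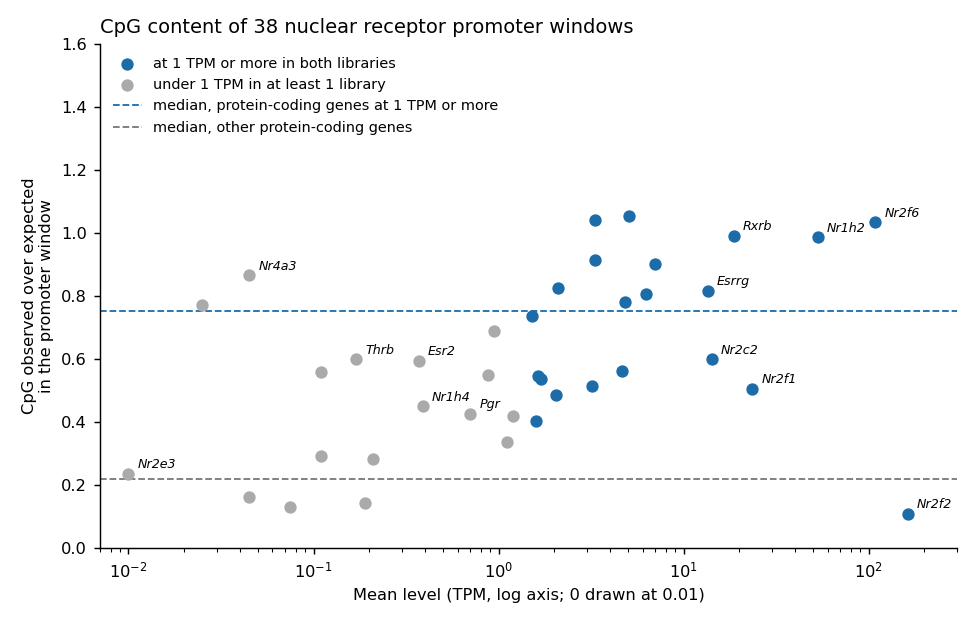
Ratio of observed to expected CG pairs in the promoter window against mean level in TPM on a log axis for 38 receptors. Blue points are receptors at 1 TPM or more in both libraries, grey points the others, and dashed lines the medians of protein-coding genes, 0.753 and 0.218. Nr2f2 lies apart at the lower right.

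Among the receptors tied to the circadian clock, Nr1d2 and Nr1d1, the heme-binding REV-ERB repressors, had 8.34 and 4.20 TPM and 2.02 and 1.18 TPM. Replicate 1 was higher for both, and Nr1d2 stood 4.13-fold and 3.56-fold above Nr1d1. Rora, an activator that binds the same DNA element, had 4.93 and 5.17 TPM and so differed little between the libraries. Rorb, known from retina and brain, had 0.14 and 0.080 TPM. Of 15 listed clock genes 13 were at 1 TPM, beside 59.0% of protein-coding genes. Cry1 had 25.1 and 12.4 TPM, Tef had 15.1 and 12.0 TPM and Cry2 had 16.6 and 10.3 TPM. Bhlhe41 had 0.58 and 0.94 TPM and Npas2 had 0.55 and 0.31 TPM. The labels give no time of day for the collections.

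The estrogen-related receptors, orphan regulators of mitochondrial genes, split by member. Esrrg had 16.8 and 10.2 TPM, Esrra had 3.36 and 6.29 TPM, and Esrrb, a factor of embryonic stem cells, had 0.11 TPM in both. Esrrg and Esrra moved oppositely between the libraries, and Esrrg exceeded Esrra 5.01-fold in replicate 1 and 1.63-fold in replicate 2. The order depended on short transcripts. Transcripts under 1000 nt took 57.7% and 63.9% of the Esrrg TPM, chief among them the noncoding 507-nt Esrrg-205 with 6.41 and 3.92 TPM from 51 and 36 counts. The full-length Esrrg-201 had 6.45 and 3.33 TPM from 654 and 390 counts. Over transcripts of 1000 nt or more, Esrrg had 7.12 and 3.69 TPM and Esrra had 2.61 and 4.83 TPM, so Esrra was then the higher in replicate 2.

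The testicular receptors Nr2c1 and Nr2c2, a pair of orphan receptors that bind DNA together, had 8.16 and 5.79 TPM and 16.4 and 12.1 TPM. Nr2c2 stood 2.01-fold and 2.09-fold above Nr2c1, the steadiest of the 10 ratios between related receptors in its SD relative to its mean. A 1065-nt transcript, Nr2c2-203, with 14 annotated coding bases and no zinc finger stretch, took 40.2% and 38.7% of the Nr2c2 TPM. Counted on transcripts annotated as protein-coding that hold the stretch, Nr2c2 had 8.31 and 5.87 TPM and Nr2c1 had 8.16 and 5.80 TPM. On that measure the genes lay nearly level. It left out Nr2c2-205, annotated for nonsense-mediated decay with 1506 coding bases, at 1.48 and 1.55 TPM. Nr2c2 also shares 4590 nt of exon with Mrps25 on the opposite strand, at 60.2 and 61.9 TPM, and their counts too were divided.

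The NGFI-B receptors, immediate early genes that stimulation induces within minutes, were low. Nr4a1 had 3.52 and 3.14 TPM, Nr4a2 had 4.21 and 2.47 TPM, and Nr4a3 had 0.060 and 0.030 TPM.

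The remaining 8 receptors were all below 1 TPM in at least 1 library. Nr6a1, the germ cell nuclear factor, had 1.03 and 0.85 TPM. Nr0b1, a transcriptional repressor without this zinc finger that adrenal development requires, had 0.90 and 0.86 TPM, and its relative Nr0b2 had 0 and 2 counts. Hnf4g, a relative of Hnf4a in gut and kidney epithelium, had 0.79 and 0.66 TPM. The steroidogenic factors Nr5a1 and Nr5a2 had 0.18 and 0.090 TPM and 0.35 and 0.070 TPM. Beside Nr5a1 and Nr0b1, which mark adrenal cells, the adrenal list summed to 31.3 and 28.6 TPM. Of that list Akr1b7 had 26.6 and 24.04 TPM and Mc2r had 3.01 and 3.19 TPM, while Cyp17a1, Cyp21a1 and Hsd3b1 had no counts. The part of adrenal cells in these levels was not tested.

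Nr2e1, the tailless receptor of neural stem cells, had 1 and 2 counts. No read was counted on Nr2e3, the photoreceptor receptor, which allows up to 0.106 and 0.0914 TPM. The deposited posterior mean, which spreads reads under a prior, nonetheless lists Nr2e3 at 0.49 and 0.43 TPM.

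The cofactors of the family were more evenly present than the receptors. All 11 matched coactivators were at 1 TPM or more, with Med1 at 60.0 and 46.7 TPM, Carm1 at 46.7 and 35.0 TPM and Pprc1 at 41.9 and 29.1 TPM. The lowest were Ppargc1b at 5.64 and 4.08 TPM and Ncoa1 at 4.77 and 4.8 TPM. All 8 corepressors were at 1 TPM or more, led by Ncor1, the corepressor of unliganded thyroid hormone receptors, at 160.3 and 119.5 TPM, Hdac3 at 93.6 and 95.6 TPM and Tbl1x at 77.8 and 50.3 TPM. Tbl1xr1 had 16.7 and 10.4 TPM and Lcor had 13.5 and 10.4 TPM. The median level was 18.3 TPM for coactivators and 46.6 TPM for corepressors, against a median receptor at 1.81 and 1.21 TPM. The protein-coding median lay between, at 4.68 TPM in replicate 1 and 3.50 TPM in replicate 2.

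Between the libraries no receptor met the size rule on deposited TPM, a ratio of at least 2-fold on the log2(TPM + 1) scale with 5 TPM or more in the higher library. It was met by 0 of the 13 receptors that reached 5 TPM, against 4.54% of 11424 genes in the direction of replicate 1 and 0.998% in the direction of replicate 2, or 5.54% in either. The greatest difference among those 13 was 0.84, in Nr1d2. Of the 25 receptors with a mean of 1 TPM or more, 18 were higher in replicate 1, as were 73.2% of 14960 genes at that level. Their median log2 ratio was 0.31, beside 0.26 over those genes, so most receptors shared a shift of the whole table. On TMM-scaled CPM, counts scaled by a trimmed mean of ratios and not by length, the median over all genes was near 0, at -0.0022, and that over receptors was 0.11. On that scale Esrra met the rule, higher in replicate 2 with a log2 ratio of -1.04.

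Among the 13 receptors that reached 5 TPM, Nr3c1, Nr1d2 and Esrrg stood furthest above that shift, with log2 ratios of 0.84, 0.84 and 0.67. Esrra stood furthest below it, at -0.74. By counts corrected for library totals the ratio of replicate 1 to replicate 2 was 1.498 for Nr3c1 (95% exact interval 1.40 to 1.61), 1.65 for Nr1d2 (1.47 to 1.87), 1.59 for Esrrg (1.42 to 1.79) and 0.455 for Esrra (0.362 to 0.569). Nr3c2, under 5 TPM, had a log2 ratio of -0.71 but a count ratio of 1.04. Other receptors also differed by counts, among them Vdr at 1.83 (1.42 to 2.37), Nr2f1 at 0.671 (0.618 to 0.727) and Ppard at 0.624 (0.477 to 0.814). These intervals cover counting error only and not the difference between pups. Marker sums also differed: the proximal tubule list had 85.05 and 40.2 TPM, podocytes 73.2 and 49.5 TPM, early nephron 199.7 and 142.5 TPM and stroma 824 and 581 TPM, against 331 and 298 TPM for ureteric and 301 and 282 TPM for cap mesenchyme genes. The stromal sum was mostly Col3a1, at 469 and 358 TPM, and Col1a1, at 298.5 and 185 TPM. Pdgfra, at 41.4 and 16.2 TPM, was also higher in replicate 1. The stromal regulators Foxd1, at 12.4 and 18.3 TPM, and Tbx18, at 2.45 and 2.64 TPM, were higher in replicate 2. Within the ureteric list Calb1, at 164 and 168 TPM, and Hoxb7, at 46.1 and 46.4 TPM, differed little. Gata3, at 68.7 and 44.6 TPM, Ret, at 11.1 and 5.07 TPM, and Wnt9b, at 6.60 and 3.67 TPM, were higher in replicate 1. The part of these marker differences in the receptor differences was not tested.

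**Figure D5:**
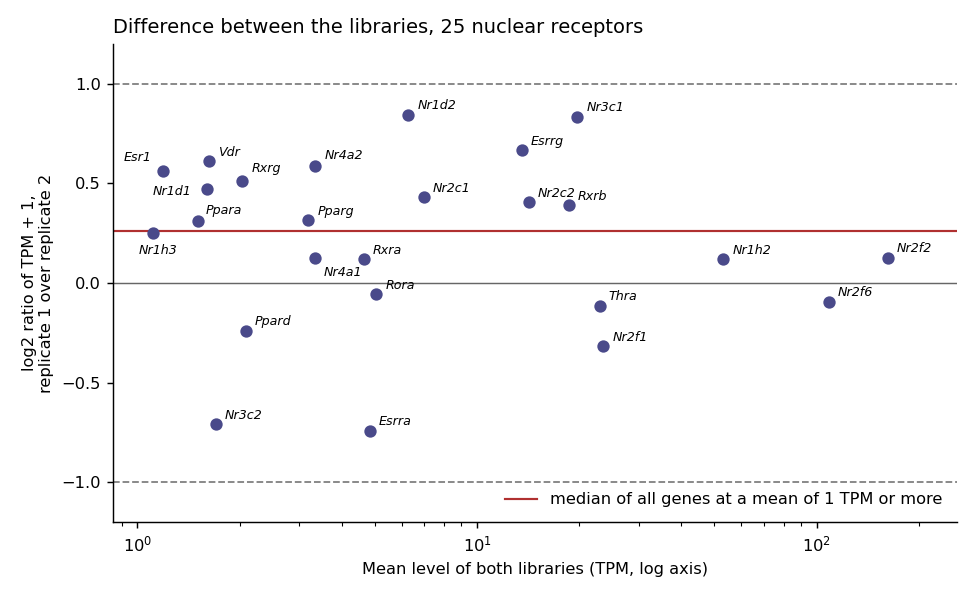
Log2 ratio of TPM + 1 in replicate 1 over replicate 2 against mean level in TPM on a log axis for the 25 receptors with a mean of 1 TPM or more. The red line is the median of all genes at that level, 0.26, and dashed lines mark a 2-fold ratio, which no receptor reaches on this scale.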

How the data were processed

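RNA-seq of 2 embryonic kidney libraries was used as deposited, with a gene and a transcript table each. Per the file headers the authors' tables give expected counts, TPM and FPKM, their posterior means, credibility bounds (a signal) and each transcript's percent of its gene; the deposited notes name mm10 and GENCODE M4. No source used here names the aligner, quantifier or strand setting, and the labels link a Smart-seq protocol. Symbols, transcripts and exons came from GENCODE M21 on the same assembly, promoter windows from RefSeq. Levels are deposited TPM with mean and SD. Expected counts were rounded for edgeR 4.0.16 (TMM, intercept only), which was tested on simulated data, as was the size rule. Intervals and limits (3 counts for an observed 0) cover counting error only, since no molecular identifiers are given. Members and lists were chosen with earlier results of these data known. All 42 receptors are named; of other lists the 3 highest, the 2 lowest and ligand-handling genes. Prmt1 and Sts found no symbol. A listed gene is not reported here. No batch is labelled apart from the collection day, which cannot be told apart from the library.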

Additional observations from a re-analysis of the deposited data

How the results depend on the processing

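No paired analysis was possible because the libraries form a single group. The count of receptors at 1 TPM in both libraries ran between 17 and 34 over 8 alternatives, with 17 at a floor of 2 TPM and 34 at 10 expected counts, all within 1.5 times the reported 23. Esrra alone met the 2-fold rule when TMM-scaled CPM replaced TPM (1 receptor higher in replicate 2), and that scaling also took the median log2 ratio of all genes to -0.0022. The family sum was 350.4 in FPKM and 579 TPM once spike-ins, mitochondrial and haemoglobin genes were left out of the scale. With posterior mean TPM the Thra to Thrb ratio was 118, the Nr1h2 to Nr1h3 ratio 34.6 and the leading transcript's median share 51.7%, against 54.0% as deposited. Over coding transcripts only that share was 58.8%, and with either library alone it was 52.3% to 55.7%. Over transcripts of 1000 nt or more, chosen after seeing the data, Nr2f2 to Nr2f1 was 8.59, Nr1h2 to Nr1h3 57.5 and Esrra to Esrrg 0.838. Of 102 values recomputed with both libraries, 81 moved by less than their spread (counts, by less than 1.5 times). A further 20 moved by more and 1 changed sign. The spread used was 0.249 for both median log2 ratios and 0.0222 for the coefficient of variation, values that are not an SD over the libraries. Causes were not tested. Low members are limited by counts.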
